A study of Mus musculus with 10 samples.

Results

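The genes described here are 32 markers of liver endothelium, the cells that line the blood vessels and sinusoids of the liver. They were chosen by name, 14 as sinusoidal and 18 as pan-endothelial genes, and all 32 were found among the 18193 genes that the array annotation names. The 5 tested animals drank water with phenobarbital, a sedative that activates the nuclear receptor CAR in liver, at 0.05% (w/v) over 28 days, and the 5 others were untreated controls. All 10 were male B6C3F1/Crl hybrid mice (C57BL/6 sire, C3H/He dam), received at an age of 29 to 32 days and settled for 5 days. Whole liver RNA of each animal was read on its own Affymetrix array as a log2 value per probe set. The question was whether the endothelial part of the liver transcriptome differed between treated and control livers.

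Sinusoidal endothelium is a fenestrated lining without a continuous basement membrane. It clears waste molecules from blood through scavenger and Fc receptors, makes clotting factor VIII, and sends BMP and Wnt signals to neighbouring hepatocytes. BMP signals drive hepatocytes to make the iron hormone hepcidin, and Wnt signals from the cells around the central vein pattern the lobule. Pan-endothelial genes, such as those of the VEGF and angiopoietin receptors and of cell junctions, are shared with arteries, veins and lymphatic vessels.

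Tissue identity and array quality were looked at first. Hepatocyte markers were at the top of the scale, with list means of 14.51 to 14.55 in phenobarbital livers and 14.55 to 14.62 in control livers (6 of 8 listed genes measured). The arrays differed in their poly-A spike-ins, bacterial RNAs added before labelling, whose mean was 5.76 to 6.58 on the phenobarbital arrays. It was 6.4 on control replicate 4, against 7.77 to 8.64 on the other 4 control arrays. Hybridisation spike-ins split the same arrays, at 10.54 to 10.74 on phenobarbital arrays, 10.65 on control replicate 4 and 10.95 to 11.30 on the other controls. The 3' minus 5' difference of beta-actin did so too, at 1.19 to 1.33, 1.28 and 1.46 to 1.78 in that order. No label names a batch, so this is called the spike-in split here. With the split entered as a block, a gene's change sets the 5 treated arrays against control replicate 4 alone, so group and that animal's own level cannot be told apart. Array medians lay between 5.42 and 5.45 in phenobarbital livers and between 5.45 and 5.5 in control livers, and the number of arrays limits the precision. Other array measures separated the groups. The upper quartile was 7.3 to 7.36 on phenobarbital and 7.39 to 7.46 on control arrays, and the 3' minus 5' difference of Gapdh was -0.28 to -0.21 on phenobarbital and -0.15 to -0.03 on control arrays, without overlap in either. The mean of the 18S rRNA probe sets was 12.63 to 13.73 on phenobarbital and 13.68 to 14.10 on control arrays. The part of these measures in the results was not tested.

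Of the 32 endothelial genes, 12 (37.5%) were lower and 2 (6.25%) were higher in phenobarbital livers, and 18 did not pass the test. Of all genes, 20.3% were called, 11.3% lower and 9.02% higher (limma, Benjamini-Hochberg adjusted p under 0.05 over all genes). The lower genes were Bmp2, Fcgr2b, Stab2, Mrc1, Clec4g, Tek, Thbd, Nrp1, Cdh5, Ptprb, Kdr and Flt1, and the higher ones Tie1 and Gata4. Of these, Flt1 fell by 15.6% and Bmp2 fell by 41.9%, the smallest and the largest of the 12 falls. In all, 23 of 32 members had a negative change, against 48.4% of all genes and 57.9% of the brighter genes. The median change of the members was -0.13, against 0.008 for all genes and -0.044 for the brighter genes. Many members were well expressed, and among the brighter genes alone 19.8% were called lower and 9.21% higher. There 11 of the 26 members tested were lower and 1 was higher.

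**Figure D1:**
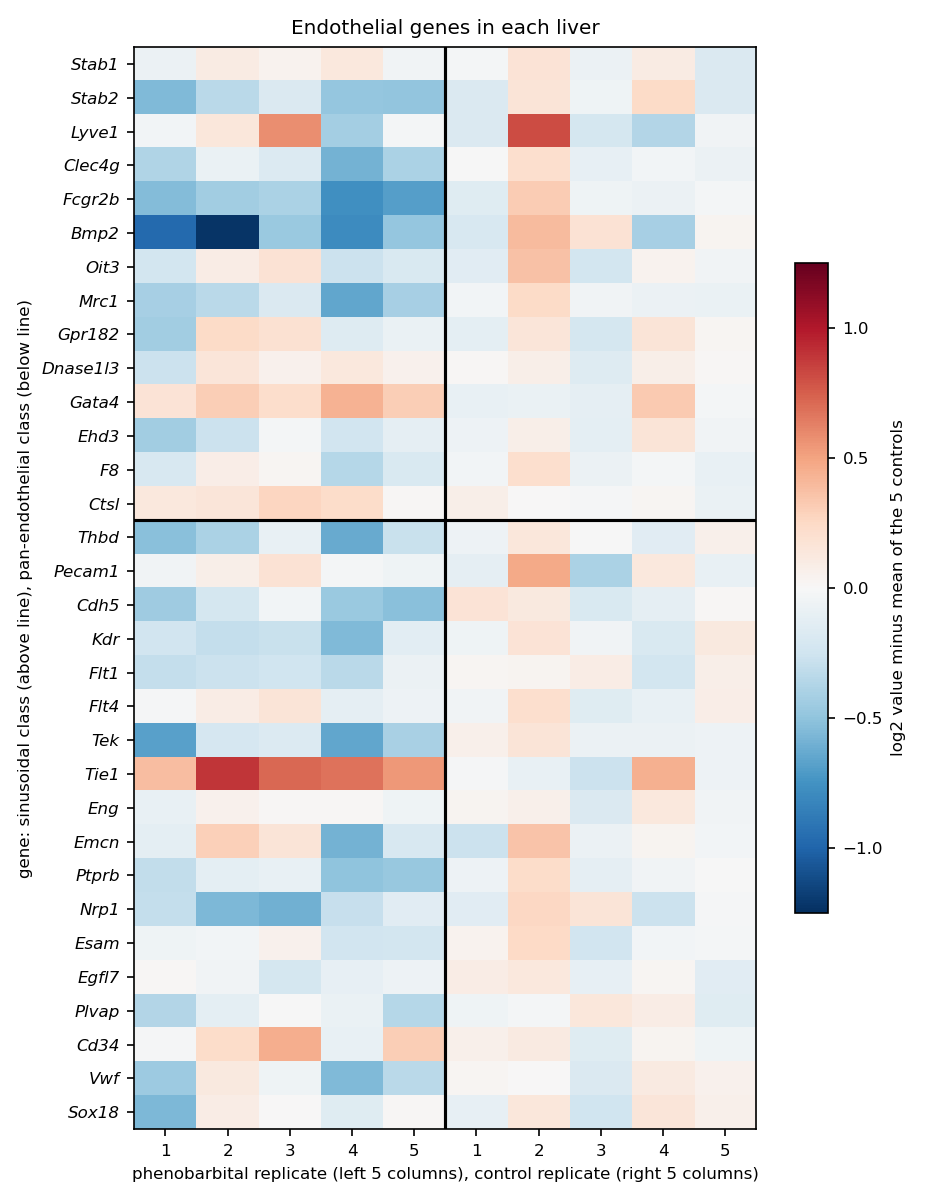
Log2 value of each of the 32 genes in each animal minus the mean of the 5 controls, as colour (blue lower, red higher), with phenobarbital animals in the left 5 columns and controls in the right 5. Bmp2, Fcgr2b, Mrc1 and Tek are blue in every phenobarbital column, Tie1 and Gata4 are red there and in control replicate 4, and Lyve1 is deepest red in control replicate 2.

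The calls were not kept when the spike-in split was taken into account. With the spike-in split as a block, limma called 0 of the 32 members in either direction, where 0.302% of all genes were called lower and 0.484% higher, and the unadjusted p was under 0.05 for 3 members (Stab2, Fcgr2b and Ehd3). That fit rests on control replicate 4 as the 1 control beside the treated arrays. The change stayed negative in all 12 lower genes, from -0.65 in Stab2 and -0.49 in Fcgr2b to -0.02 in Flt1. These 12 had been called lower with the same arrays, so their sign in that fit is not a separate result. Of all genes, which were not chosen in this way, 58% had a negative change there. The spike-in mean as a covariate also left 0 members called. Leaving out 1 animal at a time gave between 6 lower members, without control replicate 2, and 12, without control replicate 4. There were 7 after median centring. In 7 of the 14 called members (Stab2, Fcgr2b, Bmp2, Mrc1, Thbd, Tek and Tie1) the call held in all 10 omissions.

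**Figure D2:**
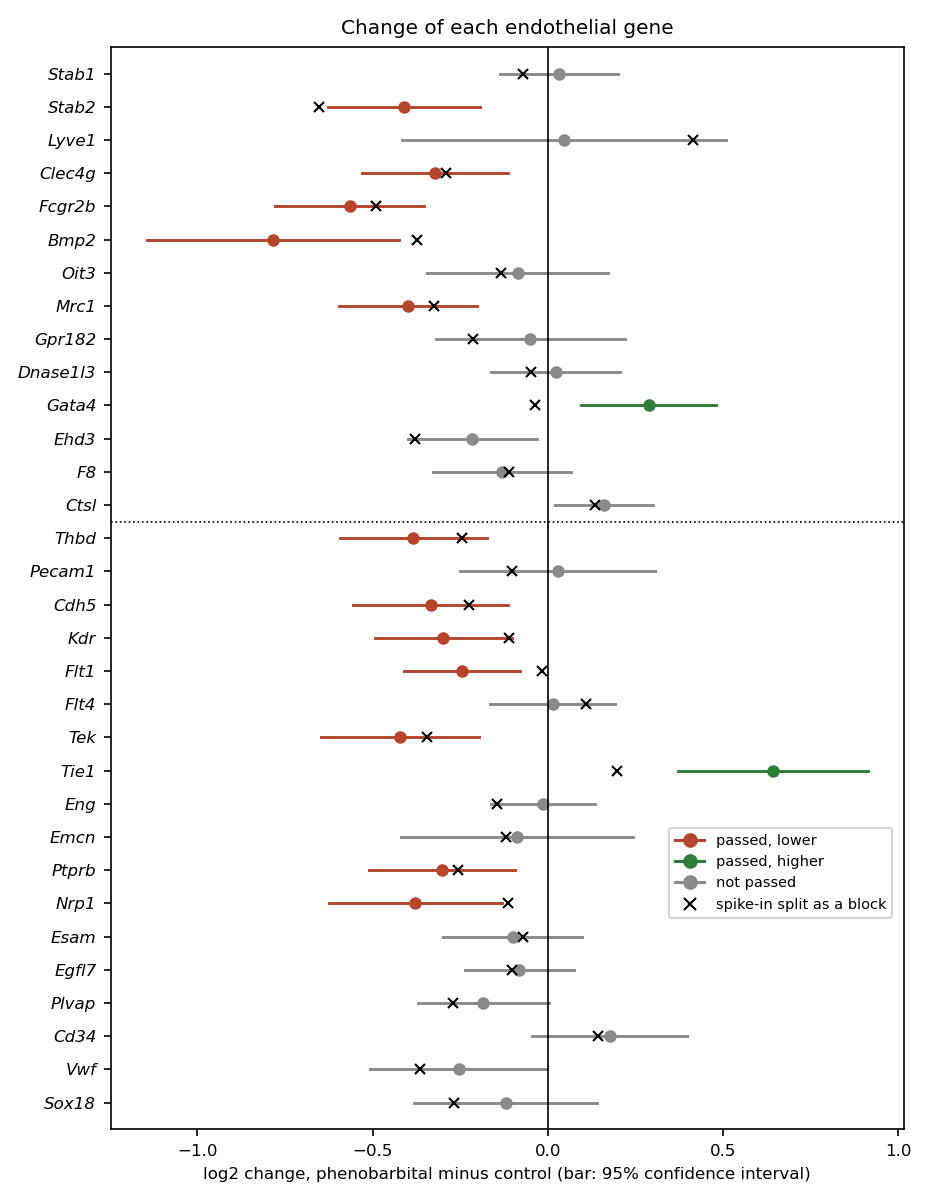
Log2 change of each gene, phenobarbital minus control (dot), with its 95% confidence interval, and the change with the spike-in split as a block (cross); sinusoidal genes are above the dotted line. The lowest dot is Bmp2 at -0.78 and the highest is Tie1 at 0.64, and the crosses of Tie1, Gata4, Bmp2 and Flt1 lie nearer to 0 than their dots.

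Averaged per animal, the 14 sinusoidal genes had mean levels of 8.70, 8.90, 9.01, 8.73 and 8.80 in phenobarbital replicates 1 to 5, against 8.92, 9.22, 8.91, 9.01 and 8.94 in control replicates 1 to 5. The groups overlapped, since phenobarbital replicate 3 lay above 3 of the controls. The group means were 8.83 ± 0.13 in phenobarbital and 9.0 ± 0.13 in control livers (SD, n = 5 each), a difference of -0.17. The 18 pan-endothelial genes averaged 7.27, 7.47, 7.49, 7.23 and 7.35 in phenobarbital replicates 1 to 5, and 7.47, 7.64, 7.38, 7.49 and 7.48 in the controls. The means were 7.36 ± 0.12 in phenobarbital and 7.49 ± 0.10 in control livers (SD, n = 5 each), a difference of -0.13, again with overlap. No test was made on these averages, because the members were chosen with earlier results of these data known. With the spike-in split as a block the differences were -0.18 (sinusoidal) and -0.13 (pan-endothelial). Summed linear levels, in which the brightest genes weigh most, were not tested either. The sinusoidal sums overlapped, at 15833 to 18705 in treated and 16306 to 18497 in control animals. The pan-endothelial sums did not overlap, at 5351 to 5661 in treated and 6149 to 7411 in control animals. Of the sinusoidal genes 5 of 14 were called lower and 1 higher, and of the pan-endothelial genes 7 of 18 and 1. Of all genes 11.3% were called lower and 9.02% higher, and of the brighter genes 19.8% and 9.21%.

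In whole liver, fewer endothelial cells and less RNA per endothelial cell cannot be told apart. Markers of other cell types were read beside these averages, and their part in the result was not tested. Beside each marker count stand 11.3% of all genes called lower and 9.02% called higher, and 19.8% and 9.21% of the brighter genes. Stellate cell markers were lower in 6 of 10 genes and higher in none. Stellate list means were 7.93 to 8.35 in phenobarbital livers, against 8.46 to 8.58 in control livers. Their summed linear level was 4826 to 6916 in treated and 7684 to 8215 in control animals, so that the groups did not overlap, and the difference of the list mean was -0.38 (-0.37 with the spike-in split as a block, where limma called 0 of the 10, with an unadjusted p under 0.05 for 3). Kupffer cell markers, from the resident macrophages that share Mrc1, Stab1 and Fcgr2b with the endothelium, had 1 of 11 genes lower, Timd4 (chosen after its value was seen). Their list means were 8.20 to 8.60 in phenobarbital and 8.16 to 8.62 in control livers, and the summed levels 4921 to 6704 in treated and 4971 to 6652 in control animals. Leukocyte markers (12 of 13 measured, 0 called by limma and 3 below the mean lower quartile of the arrays) had list means of 5.4 to 5.47 in treated and 5.39 to 5.56 in control animals, and sums of 971 to 1121 in treated and 1033 to 1254 in control animals. Summed hepatocyte levels were 143825 to 147504 in treated and 147878 to 153578 in control animals, so these groups did not overlap either. The hepatocyte list means did not overlap, with a difference of -0.058. None of the 6 measured hepatocyte markers passed limma, and they lie at the top of the scale, whose highest value was 15.13. Of 5 cholangiocyte markers Epcam was higher (named after its value was seen), with sums of 216 to 239 in treated and 189 to 240 in control animals. None of 5 smooth muscle and mesothelium markers passed limma, and their sums were 593 to 749 in treated and 445 to 791 in control animals. No marker on these lists was listed at 0.

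**Figure D3:**
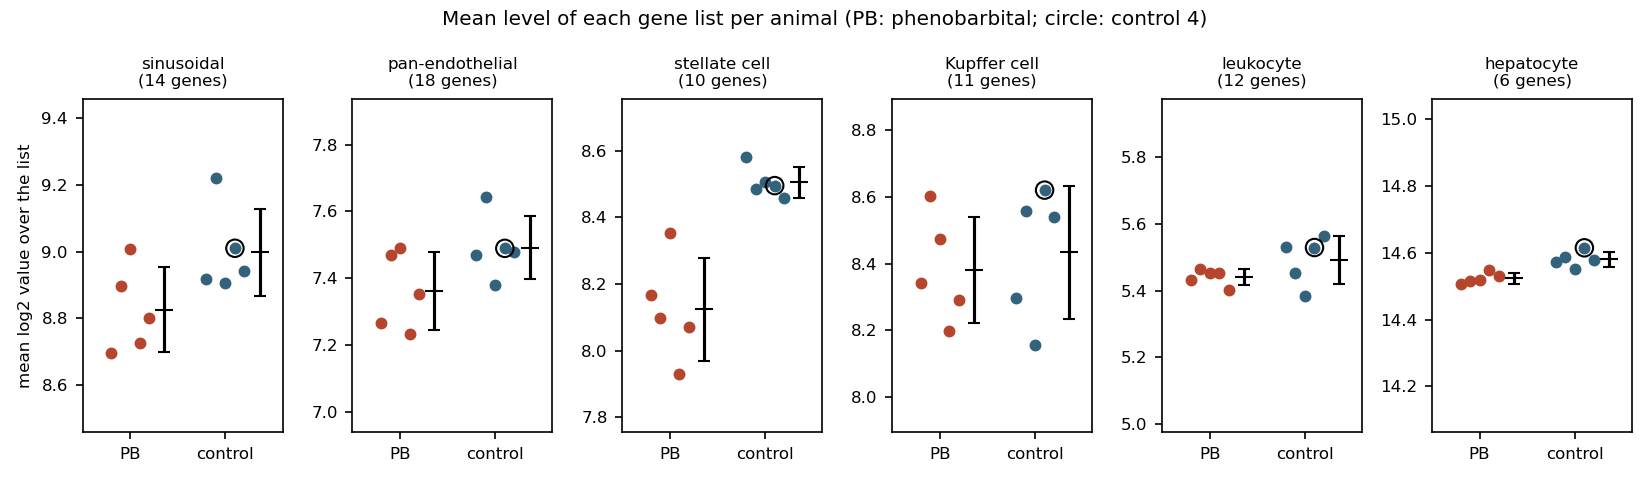
Mean log2 value per animal over each gene list, phenobarbital (PB) left and control right in each panel, on axes of equal length; the bar shows mean and SD of 5 animals and the circle marks control replicate 4. The stellate cell list is lower in all 5 phenobarbital animals (at most 8.35) than in all 5 controls (at least 8.46). The hepatocyte list is also lower in all 5 phenobarbital animals (at most 14.547) than in all 5 controls (at least 14.552). The sinusoidal, pan-endothelial, Kupffer cell and leukocyte lists overlap.

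Among the scavenger and endocytic receptors, 4 of 6 fell. Counts of this and the following role groups stand beside 11.3% of all genes and 19.8% of the brighter genes called lower. They are not read as results about the groups. Fcgr2b, the inhibitory IgG receptor through which sinusoidal cells of the mouse liver remove immune complexes, was at 9.55, 9.66, 9.70, 9.33 and 9.41 in phenobarbital livers, against 9.94, 10.41, 10.04, 10.02 and 10.07 in control livers. Every treated animal lay below every control. The log2 change was -0.57 ± 0.10 (SE, limma adjusted p = 0.00281), and the level fell by 32.5%. It fell on 1 of the 5 Fcgr2b probe sets alone. The others had changes from -0.28 to 0.17 and did not pass, and the call was lost when its probe sets were averaged. The mannose receptor Mrc1, which takes up glycoproteins, was at 8.70, 8.78, 8.93, 8.46 and 8.70 in phenobarbital livers, against 9.08, 9.35, 9.07, 9.04 and 9.03 in control livers. Its groups did not overlap either, with a log2 change of -0.40 ± 0.09 (SE, limma adjusted p = 0.0104). Of the 32 members 4 had groups that did not overlap, all lower, where 7.21% of all genes had every treated animal below every control and 5.73% had every treated animal above.

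Stabilin-2, encoded by Stab2, is the main hyaluronan scavenger receptor of sinusoidal cells. Its level was 8.55, 8.77, 8.93, 8.62 and 8.61 in phenobarbital livers, against 8.93, 9.27, 9.05, 9.35 and 8.93 in control livers. The groups touched at 8.93. The log2 change was -0.41 ± 0.10 (SE, limma adjusted p = 0.0143), and with the spike-in split as a block -0.65. The block value rests on control replicate 4 alone, the highest control for Stab2 at 9.35. Clec4g, the lectin LSECtin, ranged from 10.18 to 10.69 in phenobarbital livers (median 10.40) and from 10.67 to 10.98 in control livers (median 10.74). It fell by 0.32 on the log2 scale (limma adjusted p = 0.0336), a call lost in 5 of 10 omissions of an animal. The other 2 receptors did not pass. Stab1, encoding stabilin-1, which macrophages also carry, stood at 7.76 ± 0.09 in phenobarbital and 7.73 ± 0.14 in control livers (SD, n = 5 each), with a 95% confidence interval of the change from -0.14 to 0.20. The hyaluronan receptor Lyve1 was the most variable member. It ranged from 7.48 to 8.49 in phenobarbital and from 7.54 to 8.72 in control livers, and its interval ran from -0.42 to 0.51.

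Of the proteins that sinusoidal cells secrete, Bmp2 fell most of all members. It encodes a BMP ligand that, with Bmp6, induces hepcidin in hepatocytes. The values were 8.07, 7.82, 8.58, 8.26 and 8.56 in phenobarbital livers, against 8.84, 9.44, 9.22, 8.63 and 9.08 in control livers. Every treated animal lay below every control, though the lowest control, replicate 4, was close to the highest treated animals. The log2 change was -0.78 ± 0.17 (SE, limma adjusted p = 0.00737), and it was -0.37 with the spike-in split as a block (limma adjusted p = 0.588). The other 4 secreted products did not pass. Oit3, a secreted zona pellucida domain protein, changed by -0.09 ± 0.12, F8, clotting factor VIII, by -0.13 ± 0.09, and the chromatin-degrading nuclease Dnase1l3 by 0.02 ± 0.08 (SE, limma adjusted p from 0.330 to 0.880). The lysosomal protease Ctsl, which most liver cells express, was at 13.47 ± 0.10 in phenobarbital and 13.31 ± 0.06 in control livers (SD, n = 5 each; limma adjusted p = 0.0969).

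Gata4, the transcription factor required for sinusoidal identity in the mouse, was the single sinusoidal gene that rose. It was at 6.77, 6.90, 6.82, 7.03 and 6.90 in phenobarbital livers, against 6.5, 6.51, 6.48, 6.92 and 6.57 in control livers. Control replicate 4 lay among the treated animals, and the other controls lay below all of them. The log2 change was 0.29 ± 0.09 (SE, limma adjusted p = 0.0375), and it was -0.04 with the spike-in split as a block. The call was lost in 8 of 10 omissions. Gpr182, an atypical chemokine receptor of endothelium, changed by -0.05 ± 0.12 (SE) and did not pass. Ehd3, which remodels endocytic membranes, changed by -0.22 ± 0.09 (SE, limma adjusted p = 0.0893) on the probe set with the higher mean.

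**Figure D4:**
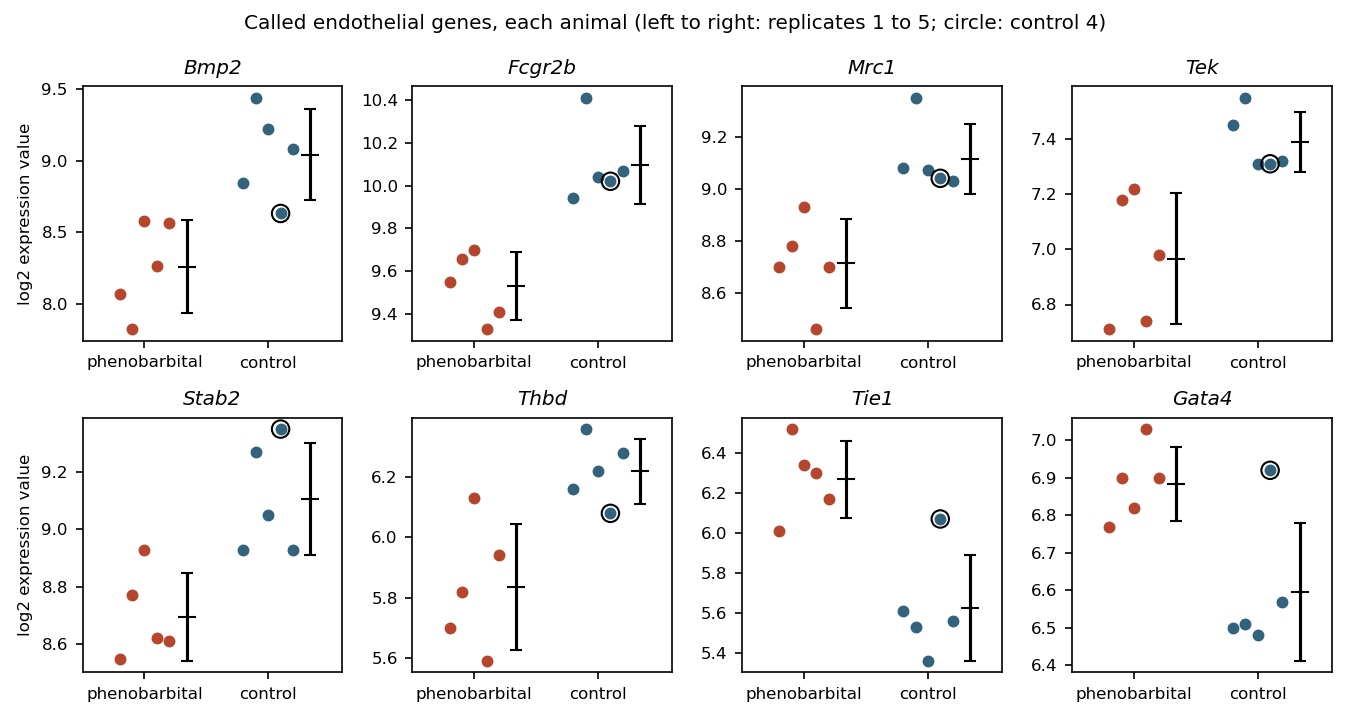
Log2 level of 8 called genes in each animal, phenobarbital left and control right in each panel, replicates 1 to 5 from left to right; the bar shows mean and SD of 5 animals and the circle marks control replicate 4. In Bmp2, Fcgr2b, Mrc1 and Tek all treated points lie below all controls, and in Tie1 and Gata4 control replicate 4 lies within the treated range.

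Of a group of 8 genes, 7 receptors and co-receptors of vascular growth factors and the phosphatase Ptprb that acts on one of them, 5 fell and 1 rose. Tek encodes Tie2, the angiopoietin receptor that keeps endothelium quiescent. It was at 6.71, 7.18, 7.22, 6.74 and 6.98 in phenobarbital livers, against 7.45, 7.55, 7.31, 7.31 and 7.32 in control livers. The groups did not overlap, and the log2 change was -0.42 ± 0.10 (SE, limma adjusted p = 0.0151; -0.34 with the spike-in split as a block). Its partner receptor Tie1 moved the opposite way. Tie1 was at 6.01, 6.52, 6.34, 6.30 and 6.17 in phenobarbital livers, against 5.61, 5.53, 5.36, 6.07 and 5.56 in control livers. All treated animals lay above 4 of the 5 controls, and control replicate 4 lay just above phenobarbital replicate 1. Tie1 rose by 0.64 ± 0.13 on the log2 scale (SE, limma adjusted p = 0.00483), or 1.56-fold, and its change was 0.20 with the spike-in split as a block (limma adjusted p = 0.645).

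The VEGF receptors Kdr and Flt1 and the co-receptor Nrp1 fell, with log2 changes of -0.30 ± 0.09, -0.24 ± 0.08 and -0.38 ± 0.11 (SE). With the spike-in split as a block the changes were -0.11 for Kdr, -0.02 for Flt1 and -0.11 for Nrp1. The limma adjusted p without the block lay between 0.0343 and 0.0398, and each call was lost in 5 to 8 of 10 omissions. Kdr, the main VEGF receptor, was 8.13 to 8.55 in phenobarbital and 8.49 to 8.85 in control livers. Nrp1, which also binds semaphorins, was 10.38 to 10.84 in phenobarbital and 10.72 to 11.24 in control livers. Ptprb, the phosphatase that acts on Tie2 and VE-cadherin, was 9.83 to 10.24 in phenobarbital and 10.22 to 10.57 in control livers, a log2 change of -0.30 ± 0.10 (SE, limma adjusted p = 0.0429; -0.26 with the spike-in split as a block). Its call was lost in 7 of 10 omissions. The lymphatic VEGF receptor Flt4, which sinusoidal cells share, changed by 0.01 ± 0.08 and the BMP and TGF-beta co-receptor Eng by -0.01 ± 0.07 (SE). Neither passed, and the 95% intervals reached from -0.16 to 0.19 for Flt4 and from -0.16 to 0.13 for Eng.

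Of the junction and surface proteins 1 of 6 fell, where 11.3% of all genes and 19.8% of the brighter genes were lower. Cdh5, the VE-cadherin of endothelial junctions, was 6.87 to 7.36 in phenobarbital and 7.20 to 7.56 in control livers, a log2 change of -0.33 ± 0.10 (SE, limma adjusted p = 0.0365) that lost its call in 7 of 10 omissions. The adhesion molecule Pecam1 (change 0.03, 95% interval from -0.25 to 0.31), the junction protein Esam (-0.10), the sialomucins Emcn (-0.09) and Cd34 (0.18) and the fenestral diaphragm protein Plvap (-0.18) did not pass. Of the remaining 4 genes Thbd, thrombomodulin, which turns thrombin to anticoagulant use, fell. It was at 5.70, 5.82, 6.13, 5.59 and 5.94 in phenobarbital livers, against 6.16, 6.36, 6.22, 6.08 and 6.28 in control livers, with phenobarbital replicate 3 above control replicate 4. The log2 change was -0.38 ± 0.10 (SE, limma adjusted p = 0.0161), and -0.24 with the spike-in split as a block. The clotting protein Vwf (-0.25), the secreted factor Egfl7 (-0.08) and the transcription factor Sox18 (-0.12) did not pass.

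Probe sets of 1 gene did not always move together. The 32 members had 56 probe sets, and tested singly 19 of them were lower and 4 higher, against 11% and 7.7% of all probe sets. All 3 probe sets of Ptprb fell, with changes of -0.30, -0.94 and -0.38, and 3 of the 4 of Nrp1 fell, with changes from -0.61 to -0.38. Ehd3 fell on its second probe set (-0.62, limma adjusted p = 0.00179, groups apart), as did Dnase1l3 (-0.42) and Eng (-0.31), whose probe sets with the higher mean had changes of -0.22, 0.02 and -0.01. Flt4 rose on its second probe set (0.45, groups apart). Flt1 fell on 1 probe set (-0.24) and rose on another near the bottom of the scale (0.36; means of 4.41 in phenobarbital and 4.05 in control livers), with 2 more near 0. A 3' labelled array reads each probe set at its own distance from the end of the transcript, and the 3' minus 5' difference of beta-actin was 1.19 to 1.33 on phenobarbital and 1.28 to 1.78 on control arrays. Its part in these differences was not tested.

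**Figure D5:**
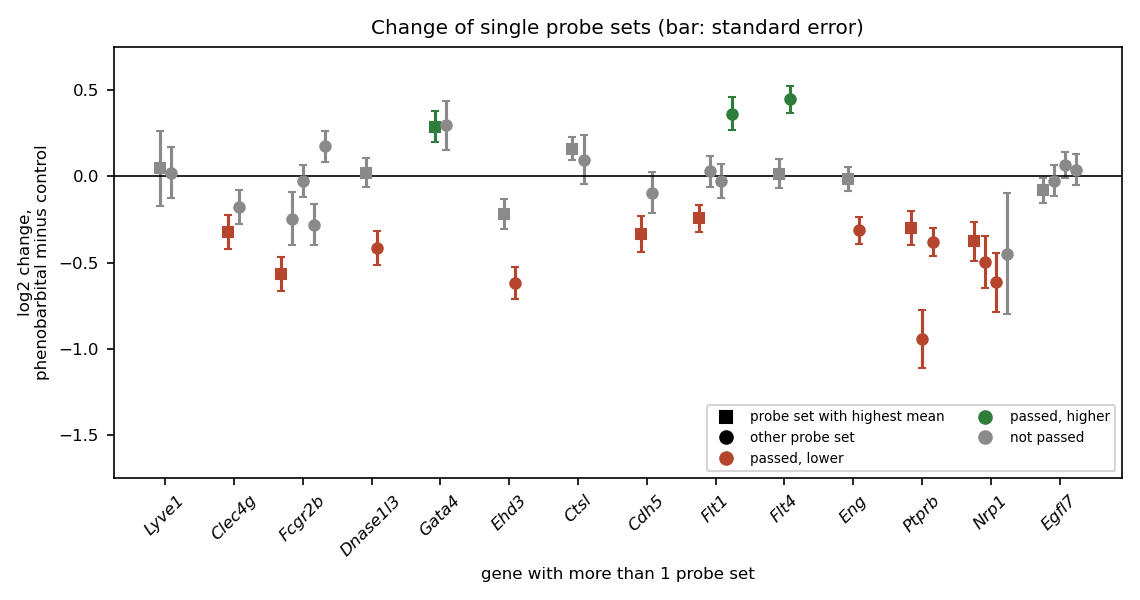
Log2 change (phenobarbital minus control) of every probe set of the 14 genes that have more than 1, with its standard error; squares are the probe sets with the highest mean and colours mark the calls. The 3 probe sets of Ptprb and the 4 of Nrp1 all lie below 0, while those of Flt1 lie on both sides of 0.

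Promoters of the called genes whose groups did not overlap, and of Tie1 as the largest rise, are shown as a description of their base sequence. Its part in the changes was not tested. RefSeq windows (GRCm38.p6, from 250 bases before to 50 after the start) were at hand for 18 of the 32 genes, in 20 windows; Bmp2 had none. Capitals mark matches on either strand to AGATAA and TGATAA (bound by GATA factors such as Gata4), AGGAAG and CGGAAG (ETS factors) and AACAAT (SOX factors such as Sox18). The first pair shares its last 5 letters, as does the second pair.
Fcgr2b, chr1:170976022-170976321, minus strand: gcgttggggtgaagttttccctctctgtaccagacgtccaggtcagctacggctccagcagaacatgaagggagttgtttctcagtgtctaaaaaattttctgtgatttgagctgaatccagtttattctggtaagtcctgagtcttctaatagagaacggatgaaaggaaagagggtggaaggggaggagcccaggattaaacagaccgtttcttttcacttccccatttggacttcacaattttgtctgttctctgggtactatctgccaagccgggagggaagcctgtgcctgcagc
Mrc1, chr2:14229164-14229463, plus strand: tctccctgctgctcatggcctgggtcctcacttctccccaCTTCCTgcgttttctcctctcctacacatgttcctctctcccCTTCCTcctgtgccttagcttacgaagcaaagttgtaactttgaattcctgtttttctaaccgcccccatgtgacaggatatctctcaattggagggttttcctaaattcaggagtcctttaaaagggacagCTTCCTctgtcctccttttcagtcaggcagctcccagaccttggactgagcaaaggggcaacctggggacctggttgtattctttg
Tek, chr4:94739039-94739338, plus strand: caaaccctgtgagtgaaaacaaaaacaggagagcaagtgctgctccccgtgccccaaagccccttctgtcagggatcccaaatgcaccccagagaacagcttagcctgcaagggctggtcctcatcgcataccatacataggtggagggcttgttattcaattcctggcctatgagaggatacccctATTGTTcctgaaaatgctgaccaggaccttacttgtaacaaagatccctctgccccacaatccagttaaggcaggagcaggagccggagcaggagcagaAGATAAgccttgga
Tie1, chr4:118489800-118490099, minus strand: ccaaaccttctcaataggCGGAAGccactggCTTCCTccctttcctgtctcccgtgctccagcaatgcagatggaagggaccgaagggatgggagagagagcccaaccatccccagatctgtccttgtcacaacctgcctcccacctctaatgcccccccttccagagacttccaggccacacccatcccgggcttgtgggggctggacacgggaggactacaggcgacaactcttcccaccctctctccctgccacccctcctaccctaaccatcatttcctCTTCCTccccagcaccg
Mrc1 held 3 ETS matches, Tie1 held 3, Tek held 1 GATA and 1 SOX match, and Fcgr2b held none of these letters. An ETS match of either form stood in 13 of the 20 endothelial windows (65%), against 46.5% of all 32851 promoter windows. A GATA match of either form stood in 3 of 20 (15%), against 18.6%, and AACAAT in 3 of 20 (15%), against 10.7%. A match is a description of the letters, not a binding site.

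Genes that act with the members were read in lists chosen for their roles; 83 of 84 were measured, with 21 lower and 3 higher, where 11.3% of all genes and 19.8% of the brighter genes were lower. The shares of single lists, several of them close to these, are not read as results about the lists. Among the Wnt signals that central vein endothelium sends to hepatocytes, Wnt2 and Rspo3 fell, and 2 of 4 did not pass. Wnt2, which sinusoidal cells make, was at 6.71, 6.5, 6.54, 6.53 and 6.68 in phenobarbital livers, against 7.16, 6.99, 6.96, 7.29 and 6.99 in control livers, with no overlap. Its log2 change was -0.49 ± 0.08 (SE, limma adjusted p = 0.00195). Without the block the call held in all 10 omissions. With the spike-in split as a block the Wnt2 change was -0.70. That value rests on control replicate 4 alone, the highest control for Wnt2 at 7.29. Rspo3, an R-spondin that amplifies Wnt signals, was at 6.26, 6.31, 6.65, 5.95 and 6.24 in phenobarbital livers, against 7.04, 7.0, 7.14, 6.58 and 6.79 in control livers. Control replicate 4 alone lay below a treated animal. The change was -0.63 ± 0.13 (SE, limma adjusted p = 0.00591), and -0.30 with the spike-in split as a block. Without the block and averaged over its probe sets it was -0.34.

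In BMP signalling, to which Bmp2 belongs, 4 of 18 genes were lower and none higher. The BMP receptor Bmpr2 was 10.05 to 10.31 in phenobarbital and 10.35 to 10.63 in control livers (log2 change -0.41 ± 0.07 SE, limma adjusted p = 0.00328). Averaged over its probe sets the Bmpr2 change was -0.19. Gdf2, the circulating ligand BMP9, was 7.45 to 7.67 in phenobarbital and 7.76 to 8.01 in control livers (-0.32 ± 0.07 SE, limma adjusted p = 0.00705). Their groups did not overlap. The signal transducer Smad1 (-0.28) and the transcription factor Atoh8 (-0.33) fell as well, with calls that held in 9 and 5 of 10 omissions. The changes with the spike-in split as a block were -0.23 for Bmpr2, -0.28 for Gdf2, -0.14 for Smad1 and -0.43 for Atoh8, none passing. Hepcidin, the iron hormone encoded by Hamp, was at 12.96, 13.29, 12.80, 11.34 and 13.29 in phenobarbital livers, against 12.78, 13.49, 13.59, 13.39 and 13.51 in control livers. The groups overlapped, and the change of -0.62 ± 0.31 did not pass (SE, limma adjusted p = 0.174), with phenobarbital replicate 4 far below the rest. Bmp6, the second hepcidin-inducing ligand, changed by -0.17 ± 0.12 (SE) and did not pass.

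Of the VEGF and angiopoietin ligands, 2 of 7 fell. These were the Tie2 ligand Angpt1, at 4.17 ± 0.28 in phenobarbital and 4.63 ± 0.21 in control livers (SD, n = 5 each), and Vegfd, at 5.94 ± 0.15 in phenobarbital and 6.36 ± 0.29 in control livers. In phenobarbital livers Angpt1 was near the bottom of the scale, at the lower quartile of those arrays (4.15 to 4.20). The changes of Angpt1 and Vegfd were -0.46 and -0.42. With the spike-in split as a block they were -0.55 and -0.024. Vegfa, the main ligand of Kdr, was at 9.23 ± 0.13 in phenobarbital and 9.20 ± 0.12 in control livers (SD, n = 5 each; limma adjusted p = 0.780). In the Notch pathway 3 of 12 genes fell and 2 rose. The ligand Jag1 fell by 0.48 and the receptors Notch1 and Notch2 fell by 0.47 and 0.44 on the log2 scale, while the endothelial ligand Dll4 rose by 0.32 (limma adjusted p from 0.00359 to 0.0188). Averaged over each gene's probe sets the changes were -0.18 for Jag1, -0.36 for Notch1, -0.083 for Notch2 and 0.27 for Dll4. On the probe sets with the highest mean, all treated animals lay above all controls for Dll4, and below them for Jag1 and Notch2. None of these passed with the spike-in split as a block, where the changes were -0.42 for Jag1, -0.18 for Notch1, -0.24 for Notch2 and 0.46 for Dll4.

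Among endothelial transcription factors 6 of 16 fell and none rose. The largest falls were in Prox1 (-1.70), Maf (-0.85), Lmo2 (-0.55) and Foxo1 (-0.47), with limma adjusted p from 0.00251 to 0.0110. Prox1 specifies lymphatic endothelium and is also a hepatocyte factor, and Foxo1 is active in hepatocytes as well, so their levels in whole liver are not endothelial alone. With the spike-in split as a block the changes were -0.39, -0.31, -0.32 and -0.44, none passing. The flow-responsive factor Klf2 changed by -0.27 ± 0.15 (SE) and did not pass. Of 26 measured adhesion and vessel genes 4 were lower and 1 higher. The adrenomedullin receptor Calcrl (-0.62), the endothelin receptor Ednrb (-0.59), the junction protein Jam2 (-0.42) and P-selectin, Selp (-0.33), fell, with limma adjusted p from 0.00101 to 0.0213. They were, with the spike-in split as a block, at -0.33, -0.65, -0.45 and -0.55 in that order, none passing. Without the block and averaged over each gene's probe sets, Calcrl was at -0.22, Ednrb at -0.41, Jam2 at -0.25 and Selp at -0.32. Stellate cells also express Ednrb. On its probe set with the highest mean, treated and control animals did not overlap, at 7.01 to 7.25 in phenobarbital and 7.50 to 7.84 in control livers.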

How the data were processed

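Per the labels' protocols, RNA from whole liver was labelled from its 3' end and hybridised to Affymetrix arrays, 1 per animal; the submitters' processing notes name GCOS. The authors deposited log2 values, from 2.34 to 15.13; the sources used here do not give how probes were summarised and normalised, and the values were used as deposited. Of 45101 probe sets, 34945 carry 1 gene symbol. For each of 18193 genes the probe set of highest mean over the arrays was taken, and no probe set with several symbols named a member.

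The 2 groups were set against each other with lmFit and eBayes of limma 3.58.1 under R 4.3.3 (two-sided, Benjamini-Hochberg over all genes, 0.05), and the fit was tested on simulated data. Figures were drawn with matplotlib 3.10.9. The members and lists were chosen with earlier results of these data known. All members are named, with the called genes of largest change in each related list and these genes fixed by name: Bmp6, Hamp, Vegfa, Wnt2, Rspo3, Klf2 and Gdf2. The alternatives were 2 normalisations, the brighter genes, other choices of probe set, other variance models, the replicate number as a block, the spike-in split (24 poly-A probe sets, 4 arrays high and 6 low) as a block or covariate, and leaving out each animal. Those for the related genes and stellate cell markers were added after seeing the data. Replicate numbers did not pair the animals (2 of 5 same-numbered pairs had deviations correlated over 0.1).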

Additional observations from a re-analysis of the deposited data

Results flagged for a closer look

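In 8 of the 68 groups of 5 values examined (each member in phenobarbital and in control livers, and the averages), 1 animal stood far from the other 4; chance does this in about 1 in 20 groups. In phenobarbital livers, replicate 1 was low in Dnase1l3, at 7.71 against 8.03 to 8.13. Control replicate 2 was high in 4 genes: Lyve1 at 8.72 against 7.54 to 7.86, Fcgr2b at 10.41 against 9.94 to 10.07, Mrc1 at 9.35 against 9.03 to 9.08, and F8 at 7.57 against 7.27 to 7.34. Control replicate 4, the control with low spike-ins, was high in Gata4 at 6.92 against 6.48 to 6.57 and low in Flt1 at 6.48 against 6.73 to 6.80. Control replicate 3 was low in Dnase1l3, at 7.82 against 7.99 to 8.05.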

How the results depend on the processing

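The spike-in split moved the results most. The limma calls over all genes numbered 143 with it as a block and, with the spike-in mean as a covariate, 129, against 3692 without, with 0 members lower and 0 higher in both; the cause was not tested. Members called lower numbered 7 after median centring and 8 after quantile normalisation, and members called higher numbered 1 among brighter genes alone and 4 with every probe set tested singly. Replicate numbers did not pair the animals, and the replicate block called 3664 genes and 10 members lower. Leaving out 1 animal gave 2431 (phenobarbital replicate 2) to 4610 calls (control replicate 4), with 2460 without control replicate 2. It gave 6 (control replicate 2) to 12 members lower, with 7 without phenobarbital replicate 4, control replicate 1 or control replicate 5, and 1 to 2 higher. Tie1 alone was higher except without phenobarbital replicate 1 or control replicate 4. Over the omissions the class differences were -0.22 to -0.12 (sinusoidal) and -0.16 to -0.092 (pan-endothelial). After quantile normalisation the sinusoidal class mean difference was -0.11 and the pan-endothelial class mean difference -0.068. Among brighter genes alone the pan-endothelial value was -0.21. Taking each animal's median level over the pan-endothelial members, in place of its mean, gave -0.30. The median of those members' changes was -0.15.

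Single omissions ended 7 calls, with log2 changes over all 10 omissions as given. Clec4g (-0.38 to -0.25) lost its call without phenobarbital replicates 1, 4 or 5 or control replicates 1 or 2. Nrp1 (-0.44 to -0.31) lost it without phenobarbital 2 or 3 or control 2, 3 or 5, and Cdh5 (-0.41 to -0.29) without phenobarbital 1, 2, 4 or 5 or control 1, 2 or 5. Kdr (-0.34 to -0.24) lost it without phenobarbital 2, 3 or 4 or control 1, 2, 3 or 5, and Ptprb (-0.35 to -0.24) without phenobarbital 1, 4 or 5 or control 1, 2, 3 or 5. Flt1 (-0.30 to -0.22) kept it only without phenobarbital 5 or control 4, and Gata4 (0.25 to 0.37) only without phenobarbital 1 or control 4. Of the related genes, Angpt1 kept its call in 4 of 10 omissions, Vegfd and Atoh8 in 5 each, and Smad1 and Selp in 9 each. Under another choice of probe set, Notch2, Foxo1, Calcrl and Smad1 lost a call.

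Some signs turned. Quantile normalisation gave Gpr182 0.024 and Eng 0.050, median centring gave Eng 0.02, and array weights gave Gpr182 0.018 and a log2 change of Eng of 0.0085. Averaging a gene's probe sets gave Dnase1l3 -0.20, Flt1 0.030 and a log2 change of Vegfa of -0.007, and probe sets of a single transcript gave Fcgr2b 0.17. The spike-in block gave Stab1 -0.072, Dnase1l3 -0.048, Gata4 -0.036, Pecam1 -0.10 and Vegfa -0.018. The covariate gave Stab1 -0.023, Dnase1l3 -0.11, Gata4 -0.060, Pecam1 -0.056, Vegfd 0.11 and Vegfa -0.089. Over the omissions, ranges crossing 0 were -0.012 to 0.075 (Stab1), -0.088 to 0.25 (Lyve1), -0.15 to 0.006 (Oit3), -0.12 to 0.046 (Gpr182), -0.018 to 0.095 (Dnase1l3), -0.072 to 0.15 (Pecam1), -0.024 to 0.065 (Flt4), -0.058 to 0.019 (Eng), -0.19 to 0.037 (Emcn) and -0.014 to 0.069 (Vegfa).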

Other observations

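Animals ranked alike across many members, with ties counted for each. Phenobarbital replicate 3 was the highest treated animal in 17 of 32 members, phenobarbital replicate 4 the lowest in 15 and phenobarbital replicate 1 in 11. Control replicate 2 was the highest control in 20 of 32 members and the lowest in none, and control replicate 3 was the lowest in 17. The members share these arrays, so their ranks are not independent.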
